A study of Mus musculus with 12 samples.

Results

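Shelterin is the protein complex that sits on the repeats at the ends of chromosomes, and its 7 mouse genes, Terf1, Terf2, Terf2ip, Tinf2, Pot1a, Pot1b and Acd, were followed here through 12 RNA-seq libraries of lumbar spinal cord. The genes were listed by name, each symbol matched 1 Ensembl identifier, and they are 7 of the 49548 genes counted. They were chosen because Terf2 had been seen to be higher in every MFN2 than in every WT library, so the Terf2 values that separate the genotypes are given as a description and carry no test. The libraries came from 30-day-old untreated mice, 1 mouse each. The MFN2 group held 8 libraries of MitoCharc1 mice, which are on a B6;D2 background and hemizygous for Tg(Eno2-MFN2*R94Q) of line L51Ugfm/J, a transgene in which the neuron-specific rat Eno2 promoter drives human MFN2 with the R94Q change that causes Charcot-Marie-Tooth type 2A, a hereditary axonal neuropathy. These mice also carried both copies of mouse Mfn2. The WT group held 4 libraries, which the labels describe as C57BL/6 and the study's methods as WT littermates, so that strain background and transgene cannot be told apart here. Sex was not given. The libraries are called by their numbers, 41 to 43 and 72 to 76 for MFN2 and 44 to 47 for WT. No WT library has a number in the 70s, and whether 72 to 76 were collected or sequenced separately was not given, so for these 5 libraries genotype and library series cannot be told apart.

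As background, TRF1 (encoded by Terf1) and TRF2 (Terf2) bind the double-stranded telomere repeat. TRF1 helps the replication fork through the repeats, and TRF2 keeps the chromosome end folded into a loop, hidden from the ATM kinase and from end joining. RAP1 (Terf2ip) rides on TRF2. TIN2 (Tinf2) bridges TRF1, TRF2 and TPP1, the product of Acd, which recruits telomerase and tethers the POT1 proteins to the single-stranded overhang. Mice have a pair of POT1 genes: POT1a holds back the ATR kinase, and POT1b limits trimming of the strand that ends in the cytosine-rich repeat. In the spinal cord most neurons no longer divide, and outside telomeres a short form of TRF2 is known to bind REST, a repressor of neuronal genes.

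RefSeq promoter windows on GRCm38.p6 were at hand for 6 of the 7 genes (Terf1 had none), and the 250 bases before the transcription start were searched on both strands for the GC box (GGGCGG), the cAMP response element (TGACGTCA), the CCAAT box (CCAAT), the TATA box (TATAAA) and the telomere repeat itself (TTAGGG). None of the 5 motifs contains another. Among all 32851 windows of this length, 32.7% held a GC box, 1.55% a cAMP response element, 33.8% a CCAAT box, 12.4% a TATA box and 9.32% a telomere repeat. The windows of 3 genes follow, Terf2 because its level separated the genotypes, Tinf2 as the only member with a cAMP response element, and Pot1b as the only one with a telomere repeat, with the matches in capitals, 5′ to 3′ on the minus strand. They lie at chr8:107096546-107096795 (Terf2), chr14:55681818-55682067 (Tinf2) and chr17:55712625-55712874 (Pot1b).
Terf2: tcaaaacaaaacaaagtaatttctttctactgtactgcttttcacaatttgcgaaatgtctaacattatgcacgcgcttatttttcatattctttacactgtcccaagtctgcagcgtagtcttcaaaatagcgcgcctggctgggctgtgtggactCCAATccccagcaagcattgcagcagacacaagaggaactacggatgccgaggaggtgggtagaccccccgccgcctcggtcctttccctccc
Tinf2: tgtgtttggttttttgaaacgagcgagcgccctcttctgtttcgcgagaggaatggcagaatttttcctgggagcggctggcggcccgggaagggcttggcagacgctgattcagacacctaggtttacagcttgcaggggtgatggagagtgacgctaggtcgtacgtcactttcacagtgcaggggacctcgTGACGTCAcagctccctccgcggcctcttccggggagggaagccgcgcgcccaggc
Pot1b: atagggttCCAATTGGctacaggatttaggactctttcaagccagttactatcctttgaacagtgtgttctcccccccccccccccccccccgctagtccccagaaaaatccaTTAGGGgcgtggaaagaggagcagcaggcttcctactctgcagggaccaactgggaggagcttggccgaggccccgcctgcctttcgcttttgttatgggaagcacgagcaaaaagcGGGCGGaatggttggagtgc
The Terf2 window held a CCAAT box whose first base lies 93 bases before the start and no match to the other 4 motifs. The Tinf2 element begins 56 bases before the start. The Pot1b window held the telomere repeat 137 bases before the start, a GC box at 20 bases and overlapping CCAAT boxes on opposite strands at 242 and 239 bases. RefSeq lists a further start for Terf2 and for Pot1b, slightly upstream, whose windows held the same matches. In the other windows, Pot1a held a GC box at 117 bases, Acd CCAAT boxes at 250 and 74 bases, and Terf2ip none of the 5 motifs. GC content was 48.8% for Terf2, 46.8% for Acd, 51.2% for Terf2ip, 56.8% for Pot1b, 60.4% for Tinf2 and 61.6% for Pot1a, against a median of 52.4% over all windows. A match is a description of letters and not evidence that a factor binds there.

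On GRCm38 (GENCODE M21), all 7 are protein-coding, and Terf2, Terf2ip and Acd share chromosome 8. Terf2 (ENSMUSG00000031921) spans chr8:107069400-107096547 on the minus strand, Terf2ip (ENSMUSG00000033430) chr8:112011398-112020528 on the plus strand and Acd (ENSMUSG00000038000) chr8:105695860-105701102 on the minus strand. Terf1 (ENSMUSG00000025925) lies at chr1:15805646-15844052 on the plus strand, Tinf2 (ENSMUSG00000007589) at chr14:55674689-55681820, Pot1a (ENSMUSG00000029676) at chr6:25743737-25809246 and Pot1b (ENSMUSG00000024174) at chr17:55651951-55712628, these last on the minus strand. Reads could be assigned to these genes with little ambiguity from copies elsewhere, since no 75-base window of any Terf2, Terf2ip, Pot1a, Pot1b or Acd transcript occurred in a transcript of another gene, the paralogs Pot1a and Pot1b included. Terf1 shared 16 of 4677 windows and Tinf2 6 of 5423. Acd and Tinf2 overlap a gene on the other strand over much of their exons. Acd shares 1208 exon bases, 33.3% of its exons, with Carmil2, and Tinf2 shares 1540, 31.2% of its exons, with Gmpr2. The study's methods name a stranded kit, the labels an mRNA kit without that word, and whether the counting used strand was not given in the sources used here. Unless it did, reads in these overlaps cannot be told apart.

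Total counts per library ran from 19359454 to 26738930, and the 7 genes were covered by 69 to 1660 reads per library. Mouse Mfn2 stood at a median of 207 CPM (read counts brought to a common library size by TMM scaling) in the MFN2 libraries and 215 CPM in WT, log2 fold change -0.05 ± 0.07 (SE), FDR = 0.73, and as the transgene is human, these mouse counts do not check the labels. One library stood apart before any comparison was made. In library 43 the 8 forebrain markers summed to 4685 CPM, led by Camk2a at 1920 CPM, against 109 to 207 CPM in the other 11 libraries. The same library had the lowest sum of the 7 caudal Hox genes, 39.8 CPM against 229 to 303 CPM elsewhere, and of the 6 motor neuron genes, 35.5 CPM against 154 to 370 CPM. None of the 7 Hox or 6 motor neuron markers was at 0 in any library, but the low sums in library 43 go against its label of lumbar spinal cord. For the main results, values without library 43 are also given. In bulk tissue, fewer cells of a type and less RNA per cell cannot be told apart.

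All 7 shelterin genes were expressed at 30 days, and 4 of the 6 steps in the order of their levels were the same in all 12 libraries. Levels of different genes were compared per length, as CPM per kilobase of annotated exon (RPKM). Terf2ip was the most abundant at 11.9 ± 1.1 RPKM (SD, n = 12), followed by Terf2 at 6.26 ± 0.82 RPKM and Acd at 5.36 ± 0.68 RPKM. Terf1 (2.29 ± 0.28 RPKM), Pot1a (2.22 ± 0.17 RPKM) and Tinf2 (1.84 ± 0.19 RPKM) formed a middle group, and Pot1b was lowest at 0.716 ± 0.100 RPKM. The levels thus spread from the TRF2 partner RAP1 at the top to the second POT1 gene at the bottom. Terf2ip exceeded Terf2 in 12 of 12 libraries, by 1.63-fold to 2.33-fold. Acd exceeded Terf1 in 12 of 12, by 1.66-fold to 3.5-fold, and Tinf2 exceeded Pot1b in 12 of 12, by 2.12-fold to 3.83-fold. Across these 3 steps the ranges of neighbours did not overlap. For 2 pairs of neighbours the order varied between libraries. Terf2 exceeded Acd in 9 of 12 libraries and Terf1 exceeded Pot1a in 8 of 12. Pot1a exceeded Tinf2 in 12 of 12 libraries, but their ranges overlapped.

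**Figure D1:**
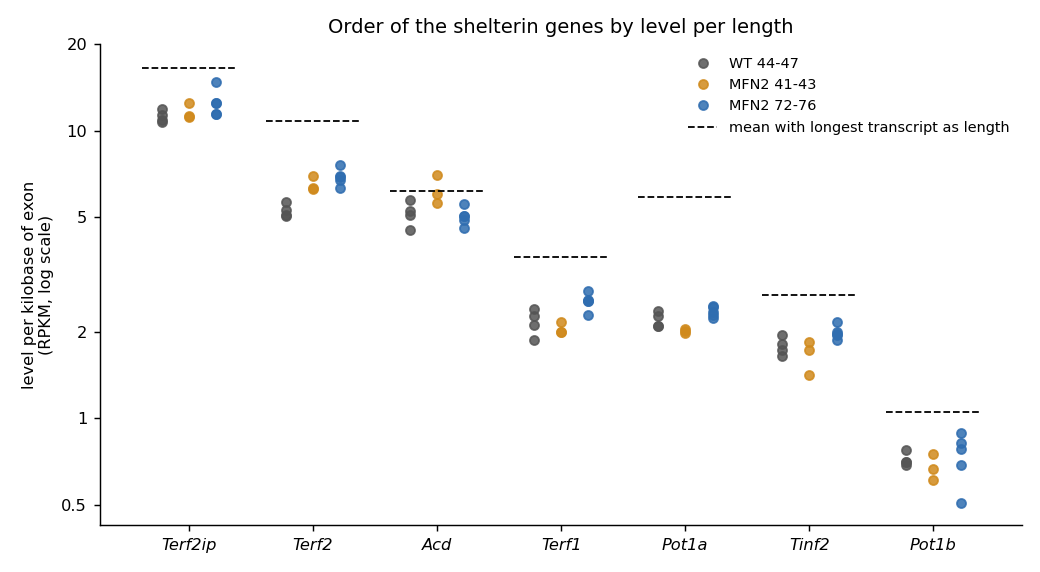
Level per kilobase of exon (RPKM, log axis) of the 7 shelterin genes, 1 point per library, coloured by group. Dashed lines are means when the longest annotated transcript is used as length, which moves Pot1a from 2.22 to 5.87 RPKM while Terf2ip stays first and Pot1b last.

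The order depended in part on which length was used, because the annotated exons of Pot1a (8669 bases) are much longer together than its longest transcript (3271 bases). With the longest transcript as length, Pot1a exceeded Terf1 in 12 of 12 libraries (the median ratio of Terf1 to Pot1a was 0.629), and Terf2 exceeded Acd in 12 of 12. Between the POT1 genes, the ratio of Pot1a to Pot1b per kilobase of exon was 3.07 ± 0.20 in WT (SD, n = 4) and 3.19 ± 0.62 in MFN2 (n = 8). Library 75, where Pot1b was at its lowest, had the highest ratio at 4.61. Pot1b was also the member with the fewest reads: a mean of 85 reads per library gives a counting error of 10.8%, beside a spread of 5.64% between the 4 WT libraries and 17.1% between the 8 MFN2 libraries. For Terf2, a mean of 656 reads gives a counting error of 3.90% against a spread of 5.31% in WT and 6.52% in MFN2.

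Terf2 was 1.28-fold higher in MFN2 than in WT spinal cord, and it is the member whose levels chose the set. Its WT libraries 44 to 47 stood at 26.0, 24.4, 23.4 and 23.1 CPM. The MFN2 libraries 41, 42 and 43 stood at 28.8, 29.1 and 31.9 CPM. Libraries 72 to 76 had a lowest value of 29.1, a median of 31.6 and a highest value of 34.8 CPM. Every MFN2 library was thus above every WT library, and the groups came closest at 28.8 CPM (library 41) against 26.0 CPM (WT library 44), a gap of 2.83 CPM. The means were 31.0 ± 2.0 CPM (SD, n = 8) in MFN2 and 24.2 ± 1.3 CPM (n = 4) in WT, a log2 fold change of 0.36. The log2 fold change against WT was 0.32 for libraries 41 to 43 alone, whose numbers adjoin those of WT, 0.38 for libraries 72 to 76 and 0.35 without library 43. With libraries 41 and 42 alone, an alternative chosen after seeing the data, it was 0.26. Of the 15942 genes tested, 156 (0.979%) were higher in every MFN2 than in every WT library. In the fit of all 8 MFN2 against 4 WT libraries, 0 genes of any kind (0%) passed an FDR of 0.05 by edgeR's quasi-likelihood test, 2386 had an unadjusted p under 0.05, and 200 passed with DESeq2.

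**Figure D2:**
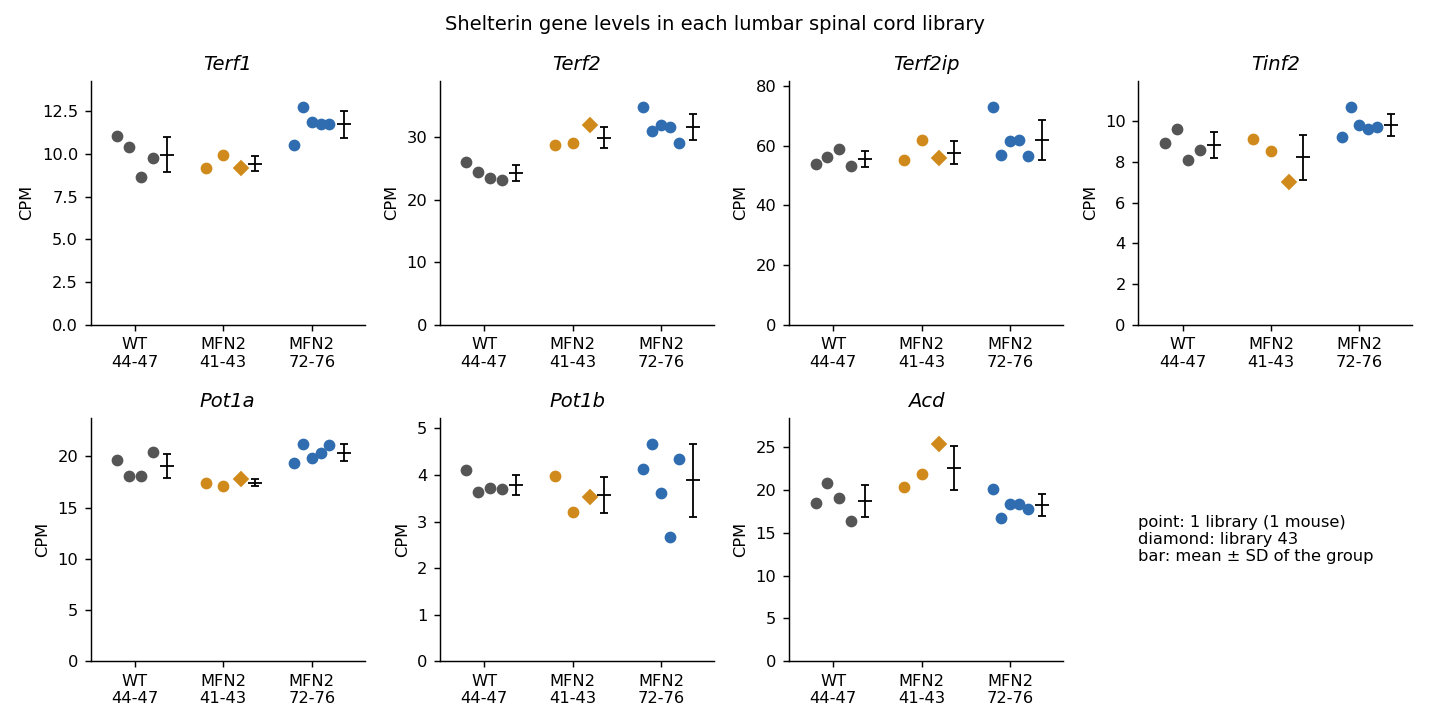
CPM of each shelterin gene in each library, with the mean ± SD of each group beside the points and library 43 as a diamond. Terf2 is the panel in which the 8 MFN2 points, 28.8 to 34.8 CPM, all lie above the 4 WT points, 23.1 to 26.0 CPM, while Terf1, Tinf2, Pot1a and Acd separate libraries 72 to 76 from 41 to 43.

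None of the other 6 shelterin genes passed the test between MFN2 and WT, at an FDR of 0.05 or at an unadjusted p under 0.05, and none kept the genotypes apart. The 6 log2 fold changes ran from -0.01 to 0.13 with a median of 0.08, beside a median of 0.00 over all genes tested, and their FDR ran from 0.45 to 0.98 (edgeR quasi-likelihood test). Terf2ip, whose product binds TRF2, had values of 54.0, 56.3, 59.0 and 53.2 CPM in WT and a lowest, median and highest value of 55.2, 59.2 and 72.9 CPM in MFN2. The groups overlapped, with 4 of 8 MFN2 libraries above every WT library, and the log2 fold change was 0.12 ± 0.08 (SE; 95% interval -0.05 to 0.28; FDR = 0.45). The highest value, in library 72, stood well above the next MFN2 library at 62.0 CPM. Among the proteins that bind the repeat, Terf1 gave 0.13 ± 0.11 (95% interval -0.11 to 0.36; FDR = 0.57). Its values were 11.04, 10.4, 8.64 and 9.76 CPM in WT and 9.19, 11.1 and 12.7 CPM (lowest, median, highest) in MFN2, with overlap. Tinf2, the bridging subunit, gave 0.06 ± 0.11 (FDR = 0.78), and Acd gave 0.09 ± 0.11 (FDR = 0.70). Single libraries moved these small values: without library 43 Tinf2 gave 0.11 and Acd 0.03, without WT library 46 Terf1 gave 0.06 and Tinf2 0.03, without WT library 47 Acd gave 0.03, without WT library 45 Tinf2 gave 0.11 and Acd 0.14, without library 73 Tinf2 gave 0.04, and without library 72 Terf2ip gave 0.08. The single-strand binders were closest to no difference, Pot1a at 0.01 ± 0.08 (95% interval -0.16 to 0.18; FDR = 0.95) and Pot1b at -0.01 ± 0.15 (95% interval -0.33 to 0.31; FDR = 0.98), and the sign of Pot1b turned when libraries were scaled by library size alone (0.04). The upper bounds of the 95% intervals ran from 0.18 for Pot1a to 0.36 for Terf1.

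**Figure D3:**
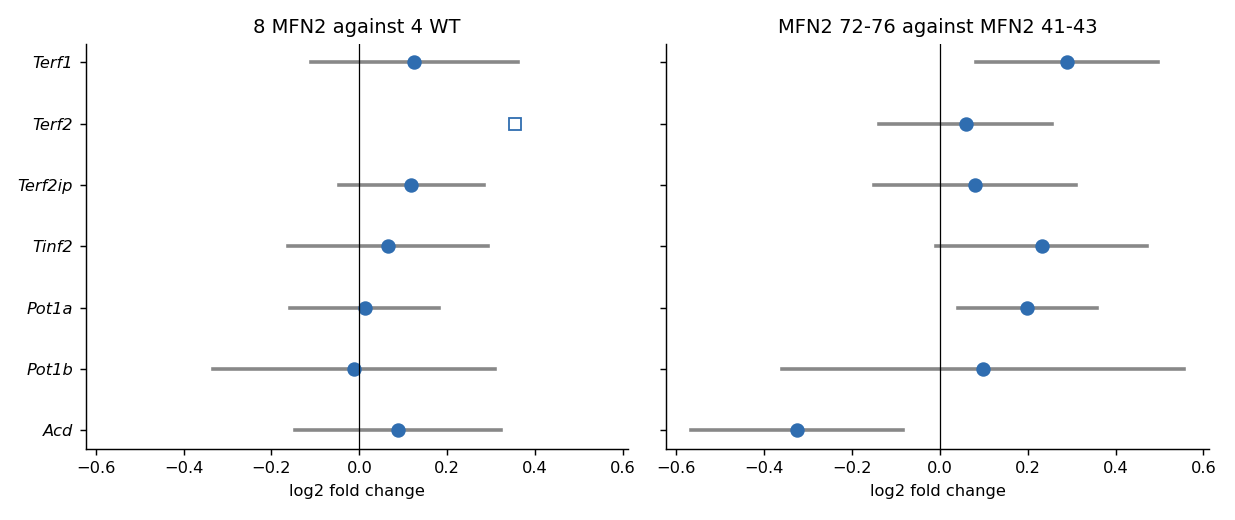
Log2 fold change of each shelterin gene for 8 MFN2 against 4 WT libraries (left) and for MFN2 libraries 72 to 76 against 41 to 43 (right). Filled points carry a 95% interval from edgeR's quasi-likelihood fit, and the open square is Terf2, at 0.36, given with no interval because its genotype difference chose the set.

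Within the MFN2 group, Terf1, Pot1a and Tinf2 were higher and Acd lower in every one of libraries 72 to 76 than in libraries 41 to 43, though none of the 4 passed the FDR threshold. This contrast, libraries 72 to 76 against 41 to 43, was not used to choose the genes, and all mice in it carry the transgene. Terf1 stood at 9.19, 9.93 and 9.20 CPM in libraries 41 to 43 and at a lowest, median and highest value of 10.5, 11.8 and 12.7 CPM in libraries 72 to 76, so the groups did not overlap. The log2 fold change was 0.29 ± 0.09 (SE; 95% interval 0.08 to 0.50), with FDR = 0.11. Pot1a stood at 17.4, 17.1 and 17.8 CPM against 19.3, 20.3 and 21.2 CPM, again with no overlap (0.20 ± 0.07; FDR = 0.13). Tinf2 stood at 9.12, 8.55 and 6.99 CPM against 9.23, 9.69 and 10.7 CPM. Its groups were also apart, with library 43 the lowest of all 12 (0.23 ± 0.11; FDR = 0.22). Acd went the other way, at 20.3, 21.8 and 25.3 CPM against 16.7, 18.3 and 20.1 CPM, without overlap and with library 43 the highest of all 12 (-0.33 ± 0.11; FDR = 0.12). For 4 of the 7 genes, then, the 2 sets of MFN2 libraries did not overlap, where 18.4% of the 15633 genes tested had no overlap in either direction. None of the 7 passed an FDR of 0.05, a threshold that 2.19% of all genes passed in this contrast, while 3 of 7 had an unadjusted p under 0.05, as did 3840 of the 15633 genes tested. The median log2 fold change of the 7 was 0.10 beside -0.02 over all genes.

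Terf2 itself overlapped between these sets of libraries. Its log2 fold change there was 0.06 ± 0.09 (SE; 95% interval -0.14 to 0.26; FDR = 0.71). Terf2ip gave 0.08 ± 0.10 (FDR = 0.66) and Pot1b, at 3.97, 3.21 and 3.52 CPM against 2.67, 4.13 and 4.67 CPM, gave 0.10 ± 0.20 (FDR = 0.80). Without library 43, Terf1 gave 0.29 ± 0.11 (FDR = 0.10), Pot1a 0.23 ± 0.08 (FDR = 0.075), Tinf2 0.14 ± 0.11 (FDR = 0.41), Acd -0.22 ± 0.09 (FDR = 0.13) and Terf2 0.12 ± 0.08 (FDR = 0.32). The 4 genes still did not overlap, and Terf2 was also apart, with 29.06 CPM in library 42 just under 29.11 CPM in library 76. In that smaller set 34.5% of genes had no overlap and 15.3% passed the FDR threshold, against 0 of the 7 shelterin genes. Carmil2, which shares exons with Acd on the other strand, ranged from 40.4 to 77.4 CPM in libraries 41 to 43 and from 55.2 to 59.7 CPM in 72 to 76. Gmpr2, which shares exons with Tinf2, ranged from 8.31 to 8.74 CPM and from 8.85 to 11.47 CPM. Gmpr2 was thus also lower in 41 to 43, and the part of shared reads in the Tinf2 difference was not tested.

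Of the 4 genes that separated libraries 72 to 76 from 41 to 43, Acd ran with the summed neuronal markers across libraries, and Terf1, Pot1a and Tinf2 ran against them. For Terf1 the correlation was -0.79 over 12 libraries and -0.80 without library 43, and for Pot1a it was -0.69 in both. The motor neuron markers went the other way over 12 libraries, at -0.78 for Acd, 0.65 for Tinf2, 0.45 for Pot1a and 0.37 for Terf1. Without library 43 these were -0.47, -0.10, 0.45 and 0.14. With the oligodendrocyte markers, Acd gave -0.74 and Tinf2 0.74 (-0.34 and 0.27 without library 43). With the microglial markers, led by Csf1r, Terf1 and Pot1a gave -0.75 and -0.60 (-0.72 and -0.55 without library 43). With the endothelial markers, led by Flt1, they gave 0.67 and 0.55 (0.73 and 0.59 without library 43). The endothelial members differed. Flt1 stood at 43.5 to 57.1 CPM in libraries 41 to 43 and 63.8 to 73.4 CPM in 72 to 76. Cldn5 ran lower in 72 to 76, with overlap, at 17.8 to 27.97 CPM and 13.1 to 19.97 CPM. Pecam1 overlapped, at 12.3 to 20.9 CPM and 14.3 to 21.7 CPM. Over the 12 libraries the correlation of log2 CPM with the neuronal markers (Snap25, Syt1, Tubb3 and Rbfox3) was 0.77 for Acd and -0.90 for Tinf2. That with the summed forebrain markers was 0.76 and -0.71. Without library 43 they were 0.55 and -0.80 for the neuronal markers and 0.59 and 0.10 for the forebrain markers, so the forebrain relation of Tinf2 rests on that library. For Terf2 the values were -0.20 and 0.37 over 12 libraries and -0.53 and 0.67 without library 43. The members of the neuronal list did not move together in library 43, where Snap25 (1242 CPM) and Tubb3 (271 CPM) were the lowest of all 12 libraries and the sum was highest through Syt1, at 1159 CPM against 111 to 234 CPM elsewhere. The strongest marker relation of Terf2 was with astrocytes, at -0.76 with or without library 43, whose 4 markers summed to a median of 3097 CPM in WT and 1809 CPM in MFN2. Gfap was the most abundant of them, at 276 to 3002 CPM across libraries, and no astrocyte marker was at 0. The astrocyte sum in libraries 72 to 76 lay between 1592 and 2783 CPM, below the WT range of 2902 to 4023 CPM, while libraries 41 to 43 spread from 1241 to 4374 CPM around it. Gfap and Aqp4 carried this sum, but both overlapped WT through library 76. Gfap stood there at 1566 CPM with a lowest WT value of 1549 CPM, and Aqp4 at 1055 CPM with WT at 904 to 1081 CPM. Slc1a3 also overlapped between 72 to 76 (97.9 to 129 CPM) and WT (108 to 179 CPM). It was highest in library 43, at 562 CPM, where the sum was lowest. Aldh1l1 alone was apart, at 63.0 to 68.9 CPM in 72 to 76 and 69.7 to 93.9 CPM in WT. The 5 dividing-cell markers, led by Mki67, summed to 110 CPM in WT library 44 and to 20.2, 30.9 and 36.9 CPM in the other WT libraries. In MFN2 their sum ran from 25.1 to 89.1 CPM, highest in libraries 72 and 73. The correlation of Terf2 with this sum was 0.38 over 12 libraries and 0.37 without library 43. The part of tissue make-up in the Terf2, Terf1, Pot1a, Acd and Tinf2 differences was not tested. These correlations are a description over libraries that differ in genotype and number series. Terf1, Pot1a, Tinf2 and Acd were taken up because they separated 72 to 76 from 41 to 43. A marker sum that also differs between these sets correlates with them in part through that split.

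Set against the rest of shelterin, the Terf2 share was also higher in MFN2, which follows in part from the values that chose it. Terf2 made up 21.4 ± 0.6% of the summed shelterin RPKM in MFN2 (SD, n = 8) and 18.5 ± 0.8% in WT (n = 4), with 20.2% the lowest MFN2 and 19.6% the highest WT value. The ratio of Terf2 to Terf2ip, the gene of its bound partner, was 0.556 ± 0.036 in MFN2 and 0.471 ± 0.037 in WT, and the ranges overlapped between 0.505 and 0.519. The ratio of Terf2 to Terf1 was 2.90 ± 0.39 and 2.45 ± 0.18, with overlap. The summed RPKM of all 7 genes ran from 29.6 to 35.0 in MFN2 and from 27.2 to 29.4 in WT, without overlap. With Terf2 left out, the sums were 24.8 ± 1.2 and 23.2 ± 0.8 RPKM and overlapped, the lowest MFN2 library at 23.4 and the highest WT library at 24.1.

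The genes whose pattern was most like that of Terf2 over the 12 libraries were found by the Pearson correlation of log2 CPM over 15941 other genes. The 4 highest were Zscan18, a zinc finger gene (r = 0.97), Crnkl1, a splicing factor (0.96), Dcc, the netrin receptor (0.95), and Fbxo11, a ubiquitin ligase subunit (0.95). The 2 lowest were Htra1, a secreted serine protease (-0.95), and Tlr3, a receptor for double-stranded RNA (-0.95). Without library 43 the 6 values lay between 0.95 and 0.97 in size, but by size Crnkl1, Dcc and Tlr3 then ranked 10, 18 and 21. All 6 genes also kept the genotypes apart (2.04% of all genes did, in either direction), which follows from their choice by likeness to Terf2. Zscan18 had a lowest, median and highest value of 14.6, 16.6 and 21.2 CPM in MFN2 and 9.97, 10.6 and 13.0 CPM in WT. Tlr3 had 10.2, 11.9 and 17.6 CPM in MFN2 and 17.9, 20.8 and 20.9 CPM in WT. In all, 40 genes had a correlation above 0.9 in size, and 172 did without library 43. Of the other shelterin genes, Terf2ip was the closest to Terf2 (0.62), followed by Terf1 (0.43), Acd (0.26), Tinf2 (0.18), Pot1a (0.12) and Pot1b (-0.03). Without library 43 Terf2ip gave 0.70, Tinf2 and Terf1 0.57 each, Pot1a 0.22 and Acd 0.11. The closest pairs within shelterin were Terf1 with Tinf2 (0.80) and Terf1 with Pot1a (0.77), and Acd ran against Pot1a (-0.81). These are descriptions over libraries that share the genotype difference.

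**Figure D4:**
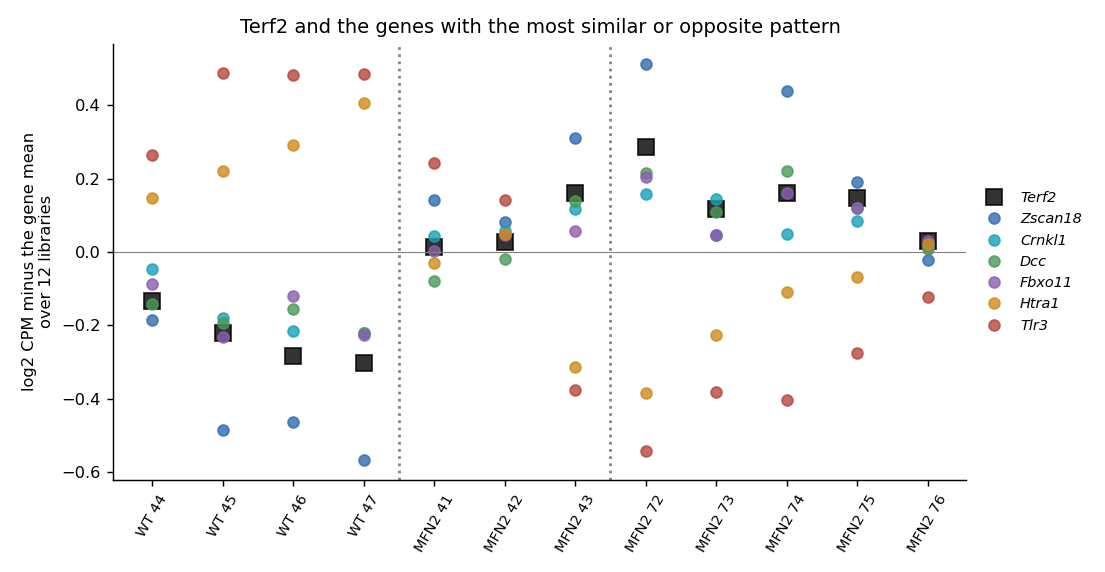
Log2 CPM of Terf2 (squares) and of the 6 genes with the highest or lowest correlation to it, each minus its own mean over the 12 libraries, by library. Dotted lines part WT, MFN2 41 to 43 and MFN2 72 to 76, and Htra1 and Tlr3 mirror Terf2 with correlations of -0.95.

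The protein-coding genes beside Terf2 on chromosome 8 did not separate the genotypes. Cog8, Nip7, Cyb5b, Nfat5 and Nqo1 had log2 fold changes for MFN2 against WT between -0.34 and 0.13 and FDR between 0.38 and 0.80. Each had overlapping groups, where 2.04% of all genes had none in either direction. The nearest on the right, Cyb5b, stood at a median of 119 CPM in MFN2 and 135 CPM in WT (-0.14 ± 0.11; FDR = 0.52), and the nearest counted gene on the left, Nip7, at 7.86 and 8.37 CPM. Its fold change (0.13 ± 0.24; FDR = 0.80) ran against these medians, library 43 stood at 18.5 CPM with the next MFN2 library at 9.46 CPM, and without library 43 the fold change turned to -0.09 ± 0.10 (FDR = 0.63). Tmed6, which lies between Nip7 and Terf2, had no read in any of the 12 libraries. For counting error only, this allows up to 3 reads in a library, which is 0.155 CPM before TMM scaling in the shallowest library.

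The other genes of telomere upkeep were taken from a list of 53 genes, all matched to the files, of which 49 passed the filter of more than 1 CPM in 3 libraries. For 8 MFN2 against 4 WT libraries, 0 of 49 passed an FDR of 0.05, with a median log2 fold change of 0.02 beside 0.00 over all genes. An unadjusted p under 0.05 (edgeR quasi-likelihood test) was seen for 4 of 49, Tert among them, and for 2386 of all 15942 genes tested. Telomerase components included Tert, the reverse transcriptase, which was barely expressed, with 11 to 41 reads per library. Tert stood at 0.742, 1.18, 0.753 and 0.574 CPM in WT and at 0.764, 1.21 and 1.60 CPM (lowest, median, highest) in MFN2, with overlap. As 7 of 8 MFN2 libraries but 1 of 4 WT libraries exceeded 1 CPM, Tert passed the filter through the MFN2 group. Neither its fold change nor its unadjusted p, counted above, is read here. Terc, the telomerase RNA, was below the filter with 2 to 11 reads per library. The study's methods name both poly(A) sequencing and a total RNA kit, so which RNA the libraries held is not settled. Wrap53, which guides telomerase to Cajal bodies, was the 1 gene of 49 whose groups did not overlap, a share equal to the 2.04% over all genes, with 10.3, 12.1, 10.6 and 10.3 CPM in WT and 5.76, 8.25 and 9.81 CPM in MFN2 (-0.43 ± 0.15; FDR = 0.28). Smg6, the telomerase-group gene with the most reads (76.2 CPM, not scaled by length), gave 0.03 ± 0.09 (FDR = 0.90).

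For the other roles, the gene with the most reads in each, by CPM and not per length, did not pass the test in MFN2 against WT. These were Ctc1 of the CST complex, which fills in the overhang (-0.03 ± 0.09; FDR = 0.89), Ercc4, a structure-specific nuclease (0.06 ± 0.08; FDR = 0.76), Tnks, a poly(ADP-ribose) polymerase of the tankyrase family (-0.15 ± 0.08; FDR = 0.36), Trp53bp1, which promotes end joining (0.10 ± 0.09; FDR = 0.57), and Atrx, a chromatin remodeller of telomeric repeats (0.36 ± 0.12; FDR = 0.28). Atrx was highest in library 43, at 389 CPM against at most 292 CPM in the other MFN2 libraries, and without that library gave 0.28 ± 0.08 (FDR = 0.10). Rest, which the short TRF2 form binds, gave -0.10 ± 0.09 (FDR = 0.59) and was lowest in library 43, at 18.0 CPM. Without that library Rest gave -0.06, Ctc1 -0.07, Ercc4 0.09 and Smg6 0.07, with FDR between 0.50 and 0.67. The meiotic partners of shelterin, Terb1, Terb2 and Majin, were below the filter, with at most 22 reads in a library for Terb1 and at most 4 for Majin.

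Between libraries 72 to 76 and 41 to 43 of the MFN2 group, 2 of 49 of these genes passed an FDR of 0.05, which is 4.08% beside 2.19% of all genes, and both were higher in 72 to 76. Without library 43, 6 of 49 passed (Rtel1, Atr, Slx4, Parn, Atrx and Pinx1, all higher), which is 12.2% beside 15.3% of all genes. Rtel1, the helicase that unwinds the telomere loop that TRF2 guards, stood at 10.3, 10.5 and 11.1 CPM in libraries 41 to 43 and at a lowest, median and highest value of 15.2, 15.9 and 18.8 CPM in 72 to 76 (0.59 ± 0.10; FDR = 0.028). The sets lay far apart, with the 4 WT libraries between them at 14.8, 11.3, 12.3 and 12.2 CPM. Atr, the kinase that POT1a holds back, stood at 21.4, 18.9 and 19.8 CPM against 24.7, 25.9 and 27.5 CPM (0.35 ± 0.07; FDR = 0.046), with WT at 26.0, 21.9, 23.3 and 27.3 CPM. Leaving out any 1 of the 7 MFN2 libraries other than 43 ended both calls, with FDR up to 0.083 for Rtel1 and 0.13 for Atr, while the log2 fold changes stayed between 0.54 and 0.63 and between 0.31 and 0.41, and without library 43 both passed (0.0045 and 0.015). Both also passed with DESeq2. Groups that did not overlap were seen for 12 of 49 genes (24.5%), near the 18.4% over all genes.

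**Figure D5:**
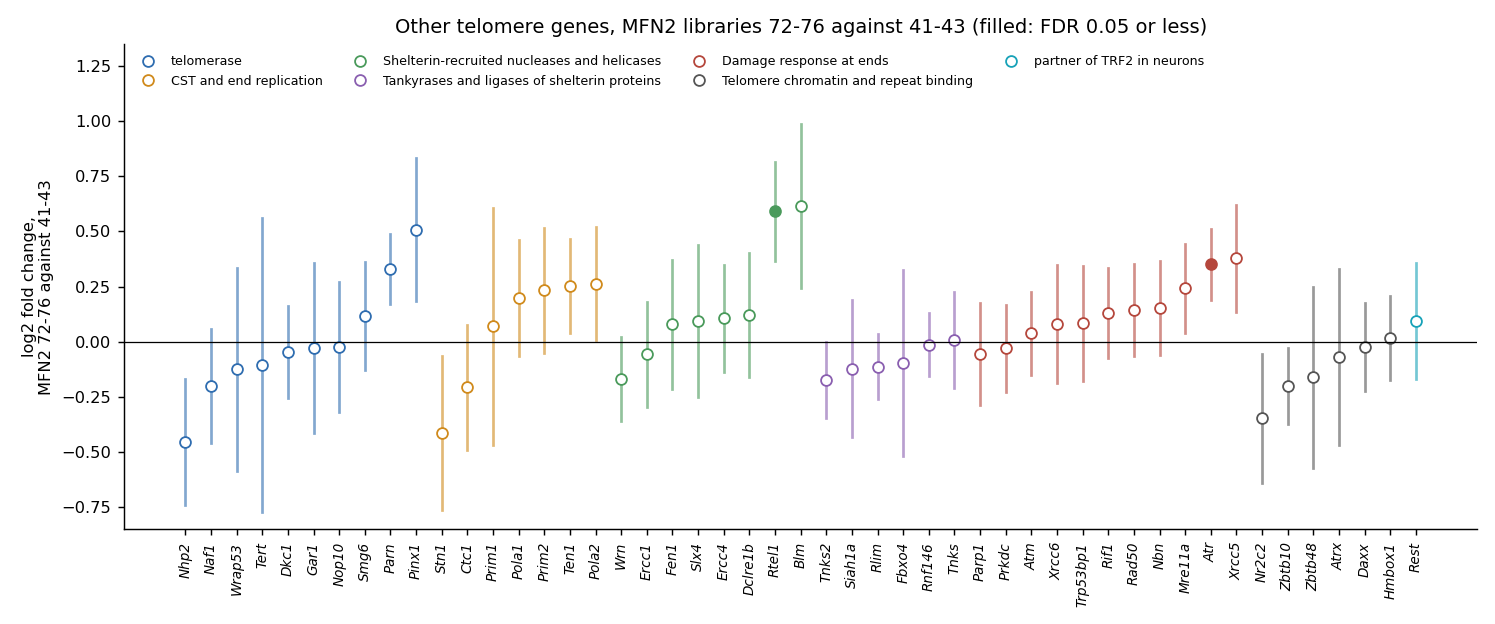
Log2 fold change with 95% interval of the 49 tested telomere genes outside shelterin, MFN2 libraries 72 to 76 against 41 to 43, grouped by role. Rtel1 (0.59) and Atr (0.35) are the 2 filled points that passed an FDR of 0.05.

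Against WT, the 2 sets of MFN2 libraries gave different counts with the same 4 WT libraries as controls. For libraries 72 to 76, 7 of 49 telomere genes passed an FDR of 0.05 (14.3%, beside 23.8% of all genes). For libraries 41 to 43, 0 of 49 passed, beside 0.00658% of all genes. There 2 of 49 had an unadjusted p under 0.05 (edgeR quasi-likelihood test), as did 1083 of all 15200 genes tested. The 6 that rose in 72 to 76 were Atrx (0.34 ± 0.06; FDR = 0.0024), the ribonuclease Parn, which trims telomerase RNA (0.30 ± 0.06; FDR = 0.0035), the helicase Blm (0.50 ± 0.12; FDR = 0.0091), the nuclease scaffold Slx4 (0.29 ± 0.07; FDR = 0.013), Rtel1 (0.37 ± 0.09; FDR = 0.015) and Pinx1, a TRF1-binding inhibitor of telomerase (0.41 ± 0.12; FDR = 0.030). Wrap53 fell (-0.47 ± 0.13; FDR = 0.023). In libraries 41 to 43 the same genes gave 0.40 for Atrx, -0.03 for Parn, -0.11 for Blm, 0.19 for Slx4, -0.23 for Rtel1, -0.10 for Pinx1 and -0.35 for Wrap53, with FDR between 0.62 and 0.89. The Atrx, Slx4 and Wrap53 values rest in part on library 43. Atrx stood at 246, 228 and 389 CPM in libraries 41 to 43 beside 208 to 248 CPM in WT, and Slx4 at 24.0, 24.5 and 36.6 CPM beside 22.02 to 27.98 CPM, so that without library 43 both genes lay within the WT range. Wrap53 stood at 9.38, 9.81 and 6.01 CPM, with WT from 10.3 CPM upward. Of the shelterin genes other than Terf2, 0 of 6 passed against WT in either set. Terf1 came nearest in 72 to 76 (0.23 ± 0.09; FDR = 0.082), and in 41 to 43 Pot1a lay below every WT library (-0.11 ± 0.09; FDR = 0.66), where 8.97% of genes had no overlap.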

How the data were processed

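Per the labels and the study's methods, libraries made with a SMARTer kit were sequenced as 75-base pairs on a NextSeq 500. The authors trimmed the reads and aligned them with STAR to GRCm38. The study's methods name poly(A) sequencing and a stranded total RNA kit, and its results speak of total RNA sequencing. The labels give an mRNA kit, not described as stranded. How reads were counted, and whether by strand, is not given in the sources used here. The deposited values are raw counts for 49548 Ensembl genes in each of 12 libraries.

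From these, genes above 1 CPM in at least 3 libraries were kept, libraries were scaled by TMM, and all genes were fitted with edgeR (4.0.16; robust quasi-likelihood F test, Benjamini-Hochberg adjustment over all genes tested, FDR threshold 0.05). CPM values are TMM-scaled, and correlations used log2 CPM with a prior count of 2. Lengths came from GENCODE M21 and promoters from RefSeq. The fits were tested on simulated data, where both fits missed most of the smallest planted fold changes. Those were larger than the fold change of any shelterin gene here. A shelterin gene that did not pass the FDR threshold is thus not shown to be unchanged. The simulated libraries had the same dispersion for every gene and no difference between number series. The members, the lists and the tests were chosen with earlier results of these data known. Telomere genes were named as the highest mean CPM of each role, Tert, Terc and up to 10 genes passing the FDR threshold, the genes beside Terf2 as the nearest 3 coding genes on each side, and Terf2-like genes as the 4 highest and 2 lowest correlations. Replicates are separate mice, and no library pair was identical.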

Additional observations from a re-analysis of the deposited data

Results flagged for a closer look

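In each group of 8 MFN2 or 4 WT libraries, the gap between the most extreme library and its nearest neighbour was divided by the group's range and compared with Dixon's 95% critical value. Of 70 groups tested, 8 exceeded it, where chance flags about 1 in 20 groups, or 3.5. Among the shelterin genes only Terf2ip did, with library 72 highest (ratio 0.617, 72.9 CPM), and the summed shelterin RPKM was highest in the same library (0.566, 35.0 RPKM). Library 43 was highest for Atrx (0.603) and for the forebrain marker sum (0.985) and lowest for the caudal spinal cord marker sum (0.724). Rest was lowest in WT library 46 (0.843, 23.7 CPM). For genes below the filter, Terb1 was lowest in library 41 (0.549) and Terc highest in library 76 (0.576), on 11 reads.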

How the results depend on the processing

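The 156 genes higher in every MFN2 than in every WT library ranged from 161 to 581 when 1 library was left out, the highest without WT library 44. For MFN2 against WT, the count of genes passing FDR 0.05 was 0 as reported and was also 0 with no filter, filterByExpr, library size alone, upper-quartile scaling and the current edgeR test. It was 200 with DESeq2, 1 for libraries 41 to 43 against WT, 3746 for libraries 72 to 76, 1 for libraries 41 and 42 (chosen after seeing the data), and 0 to 19 when 1 library was left out (7 without 41, 19 without 43). For libraries 72 to 76 against 41 to 43, 342 genes passed, 1795 with DESeq2 and 31 to 2375 when 1 library was left out (2375 without 43). The cause was not tested.

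The Terf2 log2 fold change against WT stayed between 0.26 and 0.41 in 21 alternatives. As Terf2 chose the set by being higher in every MFN2 than in every WT library, leaving out libraries could not turn its sign. This range is therefore a description and not a check, unlike the values of the other members. For libraries 41 to 43 against WT, Terf1 turned to -0.062, Tinf2 to -0.084 and Pot1a to -0.11. For libraries 41 and 42, Terf1 turned to -0.050 and Pot1a to -0.14. For libraries 72 to 76, Acd turned to -0.035 and Pot1b to 0.029, and with library size alone Pot1b turned to 0.037. Leaving out 1 library, Pot1a ranged from -0.013 to 0.046, Pot1b from -0.054 to 0.048, Terf1 from 0.062 to 0.18, Terf2ip from 0.075 to 0.15, Tinf2 from 0.026 to 0.11 and Acd from 0.030 to 0.14. In all, 16 of 224 member values reversed, all for MFN2 against WT and none past the threshold. Between the number series, scaling by library size alone moved the share of calls that were higher in 72 to 76 from 45.9% to 72.8%, and with no filter the median log2 fold change of all genes was 0.11. Atr lost its call with no filter (FDR = 0.12) at a log2 fold change of 0.36. No paired analysis was possible, because which mice shared a litter was not given in the sources used here.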
